A study of Mus musculus with 6 samples.

Results

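The genes described here are the amino acid transporters of 7 solute carrier families, SLC1, SLC3, SLC6, SLC7, SLC36, SLC38 and SLC43, measured in mouse esophagus and stomach organoids. They were found by gene name on the arrays, as every name of the form Slc followed by 1 of these family numbers, the letter a and a member number, with Slc7a11 left out. The names gave 60 genes with 79 probes, of 34298 gene names with 55681 probes. The naming rule itself uses no expression value, although the families were chosen with earlier results of these data known, and each gene is represented by the probe that is brightest on average over all 6 arrays. Some SLC6 members carry monoamines, gamma-aminobutyric acid, taurine, betaine or creatine and not amino acids of proteins, and they were kept because the names, not the substrates, set the membership.

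RNA came from organoids at passage 0, 3 cultures of squamous esophagus and 3 of columnar stomach. The labels number the cultures 1, 2 and 4 in both tissues, and these numbers are read here as mice. All cultures were controls. They were harvested on day 8, except the stomach culture of mouse 4, which was harvested on day 7. The study's methods describe wild-type female C57BL/6 mice. They give an age at euthanasia of 14 to 20 weeks after describing the tamoxifen treatment of the Cre strains. The labels tie no strain or age to an array. According to the methods, both media held HEPES, GlutaMax, B27, N2, EGF, noggin, FGF-10, N-acetyl-L-cysteine, nicotinamide, a TGF-beta receptor kinase inhibitor and a ROCK inhibitor. Only the esophagus medium held forskolin, and only the stomach medium held gastrin and medium conditioned by cells making WNT3A and R-spondin1. Tissue and medium changed together and cannot be told apart.

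Amino acids cross the plasma membrane through carriers that differ in substrate and in what drives them. SLC1, SLC6 and SLC38 proteins use the sodium gradient to accumulate amino acids, SLC36 proteins use protons, and most SLC7 proteins exchange 1 amino acid for another. An SLC7 light chain does the transport and reaches the membrane as a disulfide-linked pair with an SLC3 heavy chain. Several carriers are known targets of the transcription factor ATF4, which responds to a shortage of amino acids, and epithelia place different carriers on their apical and basolateral sides.

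Values are log2 intensities after background correction and quantile normalization by the authors, fold changes are esophagus minus stomach, and n = 3 arrays per tissue throughout. A gene passed when limma's adjusted p, with Benjamini-Hochberg adjustment over all 55681 probes, was below 0.05. A probe's brightness depends on its sequence, so levels of different genes were not set against each other. On each array 45.5% to 51.1% of the spots carried the scanner software's flag for a signal well above background, and none was saturated. A gene is called detected in a tissue when its probe carried that flag on each of the 3 arrays. The labels fit the markers: 6 of 6 squamous genes passed as higher in the esophagus and 11 of 11 gastric columnar genes as higher in the stomach. None of 9 fibroblast and muscle markers was detected in either tissue, and their summed level was 7.99 to 8.51 in the esophagus and 8.16 to 8.22 in the stomach on the log2 scale. Of 6 immune cell markers, 3 were detected in both tissues, with summed levels of 10.88 to 11.47 in the esophagus and 13.07 to 13.89 in the stomach. The part of these immune genes in the results below was not tested. Arrays measure the whole culture, so a smaller share of cells of a type and less RNA per cell cannot be told apart.

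The stomach array of mouse 4 stood apart among the 3 of its tissue. Over all gene names with values on every array, it lay more than 1 log2 unit above both others for 1.47%, against 0.146% and 0.149% for the stomach arrays of mice 1 and 2. Day 7 and mouse 4 cannot be told apart in it. Gif, which codes for gastric intrinsic factor, made by chief cells in the mouse, was lower on it (11.31, against 13.68 and 14.11 on the stomach arrays of mice 1 and 2). So was Muc5ac (13.26, against 15.65 and 15.03). Pgc (14.66, against 13.15 and 13.94) and Muc6 (9.79, against 7.39 and 8.33) were higher on it. Of the parietal cell genes, Atp4b was below background on all 6 arrays. Atp4a was dim, at 5.76, 6.01 and 6.42 on the stomach arrays of mice 1, 2 and 4. It was below background on all esophagus arrays and passed as at least 1.94-fold higher in the stomach (adjusted p = 0.0177). The part of these differences in the results below was not tested.

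Among the 60 transporters, 4 passed as higher in the esophagus, beside 7.15% of all gene names in that direction. The other direction held 7, beside 7.7% of all gene names. The 4 are Slc7a8, Slc38a2, Slc1a4 and Slc6a9, and the 7 are Slc38a1, Slc7a7, Slc1a3, Slc43a2, Slc7a4, Slc43a1 and Slc38a3. Only 28 of the 60 were detected in at least 1 tissue, and all 11 were among them. Over all gene names that were detected, 12.8% passed as higher in the esophagus and 13.9% as higher in the stomach. Another 25 members were below background on all 6 arrays and 7 were above it on some arrays only. None of these 32 passed in limma, and 1 in each set had an unadjusted p below 0.05. All 3 esophagus values lay above all stomach values for 8 members, beside 16.9% of all gene names, and below them for 11, beside 14.7%. The median log2 fold change of the 60 was 0.05, beside 0.03 for all gene names. The ends of the range were a light chain and a sodium-coupled carrier, Slc7a8 at 5.77 and Slc38a1 at -5.53.

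**Figure D1:**
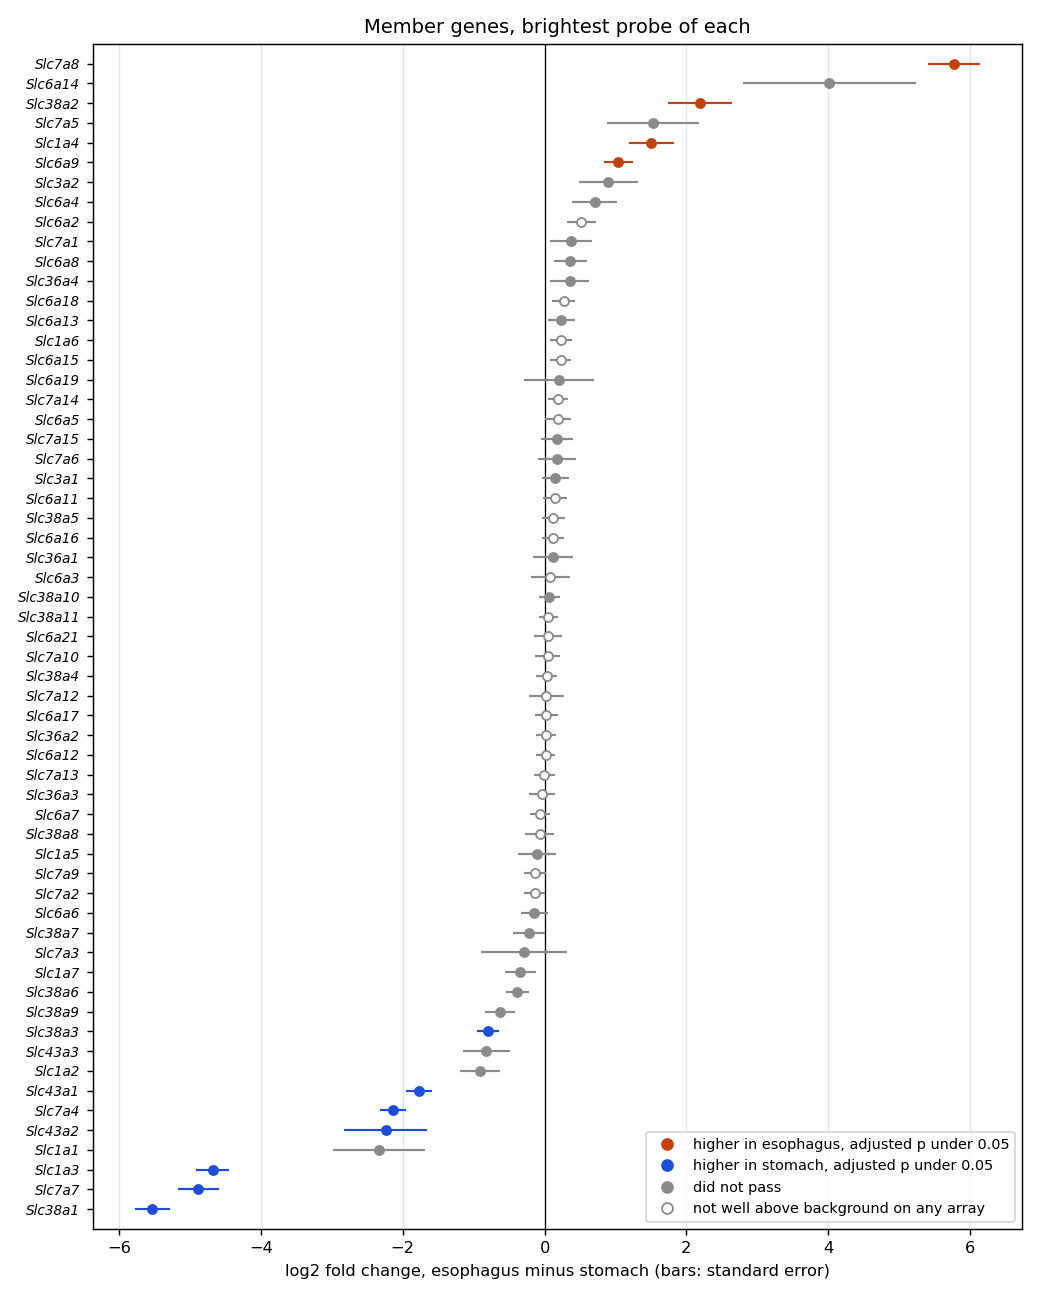
Log2 fold change, esophagus minus stomach, of the brightest probe of 59 of the 60 genes, with bars for the standard error, ordered by size. Slc7a8 at 5.77 and Slc38a1 at -5.53 form the ends, and open circles mark the 24 of them that were not well above background on any array.

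Slc7a7 and Slc7a8 both encode light chains of the heavy chain Slc3a2, and RefSeq places them near each other on chromosome 14, with 302.1 kb between the 2 genes in GRCm38.p6. Their promoters are shown because these neighbors moved in opposite directions, and the promoter of Slc38a2 because that gene is a known ATF4 target that was higher in the esophagus. RefSeq gives 42 of the 60 members a promoter in the table used here. Each sequence is the 250 bases before the annotated start, 5′ to 3′ on the gene's strand. Capitals mark the letters TGATGNAA, where N is any base, a pattern of the C/EBP-ATF element searched on both strands.
Slc7a7, chr14:54417945-54418194, minus strand, 1 of 5 annotated starts: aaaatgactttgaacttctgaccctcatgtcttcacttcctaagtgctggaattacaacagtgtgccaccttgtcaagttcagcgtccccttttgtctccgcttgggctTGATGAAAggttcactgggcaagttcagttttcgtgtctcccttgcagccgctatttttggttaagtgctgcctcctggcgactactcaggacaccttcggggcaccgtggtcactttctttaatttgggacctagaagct
Slc7a8, chr14:54781887-54782136, minus strand: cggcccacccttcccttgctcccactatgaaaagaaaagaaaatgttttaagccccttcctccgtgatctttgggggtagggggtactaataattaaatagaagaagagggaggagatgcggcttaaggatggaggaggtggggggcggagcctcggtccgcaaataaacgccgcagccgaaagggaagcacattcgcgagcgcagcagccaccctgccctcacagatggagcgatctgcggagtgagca
Slc38a2, chr15:96699729-96699978, minus strand: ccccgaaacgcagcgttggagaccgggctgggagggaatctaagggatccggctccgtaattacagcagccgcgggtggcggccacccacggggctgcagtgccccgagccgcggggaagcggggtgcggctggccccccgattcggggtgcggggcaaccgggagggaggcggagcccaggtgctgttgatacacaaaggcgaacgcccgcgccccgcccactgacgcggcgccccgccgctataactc
These letters occur once in the Slc7a7 stretch, with their first base 141 bases before the start, and not in the other stretches shown. Only the 250 bases before a start were searched, and introns and other parts of the genes were not. A stretch without the letters therefore does not show that a gene, Slc38a2 included, lacks such an element. Slc7a7 has 5 annotated starts and Slc7a8 and Slc38a2 have 1 each, so Slc7a7 had more stretches that could hold a match. The letters TGATGNAA occur in 3.45% of 32851 promoters of this length and in 3 of 63 member promoters, those of Slc7a7 and Slc6a21. A second pattern, TGAGTCA of AP-1, occurs in 4.46% of the promoters and in 5 of the 63, those of Slc3a1, Slc6a14, Slc6a17, Slc6a5 and Slc7a1. A match is a string of letters and not a shown binding site, and both patterns were chosen after the expression values were seen.

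Slc7a8 (LAT2) exchanges large and small neutral amino acids, typically on the basolateral side of absorptive epithelia. Its values were 10.40, 11.83 and 11.36 on the esophagus arrays of mice 1, 2 and 4 and 5.33, 5.07 and 5.86 on the stomach arrays. Every esophagus array lay above every stomach array, by more than 4 log2 units, and the stomach signal was above background on 2 of 3 arrays. Esophagus minus stomach gave 5.77, with a standard error of 0.37 and an adjusted p of 3.90e-05. It passed in all 14 alternative fits, with adjusted p from 5.47e-07 to 8.30e-04. The probe lies at chr14:55341137-55341196 in the mm9 coordinates of the files.

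Slc7a7 (y+LAT1), which exports cationic amino acids in exchange for neutral ones and sodium, had the opposite pattern. It read 6.86, 6.45 and 6.31 in the esophagus and 10.99, 11.22 and 12.06 in the stomach. The groups were far apart, with the stomach array of mouse 4 the highest of the 6, and the difference was -4.56 without that array. Its log2 fold change was -4.88, with a standard error of 0.29 and an adjusted p of 2.68e-05, and adjusted p stayed between 5.34e-07 and 4.93e-04 in the 14 alternatives. The probe lies at chr14:54989166-54989225 (mm9). Slc7a6 (y+LAT2), a close relative with a like activity, was detected in both tissues at 6.98, 7.74 and 8.07 in the esophagus and 7.49, 7.35 and 7.43 in the stomach. These groups overlapped, and the log2 fold change was 0.17 (SE 0.27, adjusted p = 0.785).

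Slc7a5 (LAT1), the exchanger that brings leucine and other large neutral amino acids into growing cells, did not pass. It read 12.58, 12.21 and 12.66 in the esophagus and 10.26, 9.91 and 12.69 in the stomach. The stomach arrays of mice 1 and 2 lay below all esophagus arrays, whereas the stomach array of mouse 4 was the highest of the 6. This difference was 1.53 (SE 0.65, adjusted p = 0.205) over all arrays and 2.40 (adjusted p = 5.45e-04) without that array. A second, dimmer Slc7a5 probe had a log2 fold change of 0.37 (adjusted p = 0.254) over all arrays. The heavy chain Slc3a2 (4F2hc, CD98) also differed within the stomach. Its values were 15.09, 15.56 and 15.33 in the esophagus and 13.81, 13.98 and 15.49 in the stomach. The stomach array of mouse 4 lay among the esophagus arrays and the other 2 below them. Esophagus minus stomach gave 0.90 (SE 0.42, adjusted p = 0.247), and 1.43 (adjusted p = 0.00381) without that array. No other alternative fit brought Slc7a5 or Slc3a2 below an adjusted p of 0.05. The unadjusted p of Slc7a5 was 0.0482, so it counts among the genes past that looser threshold.

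The remaining chains were dim. Slc3a1 (rBAT), the heavy chain of the cystine carrier of kidney and intestine, was above background on 1 array of each tissue and read 4.94, 5.60 and 5.46 in the esophagus and 5.26, 5.12 and 5.15 in the stomach. Its partner Slc7a9 was below background on every array, as was Slc7a10 (Asc-1), an exchanger of small neutral amino acids. No difference in these 3 genes was detectable at this signal, with adjusted p of 0.723, 0.691 and 0.924. Of 3 partner proteins outside the families, 1 (33.3%) passed in each direction, beside 12.8% and 13.9% of detected gene names. Arl6ip5, a negative regulator of the glutamate carrier Slc1a1, was the 1 higher in the stomach, with a log2 fold change of -1.53 (SE 0.15).

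**Figure D2:**
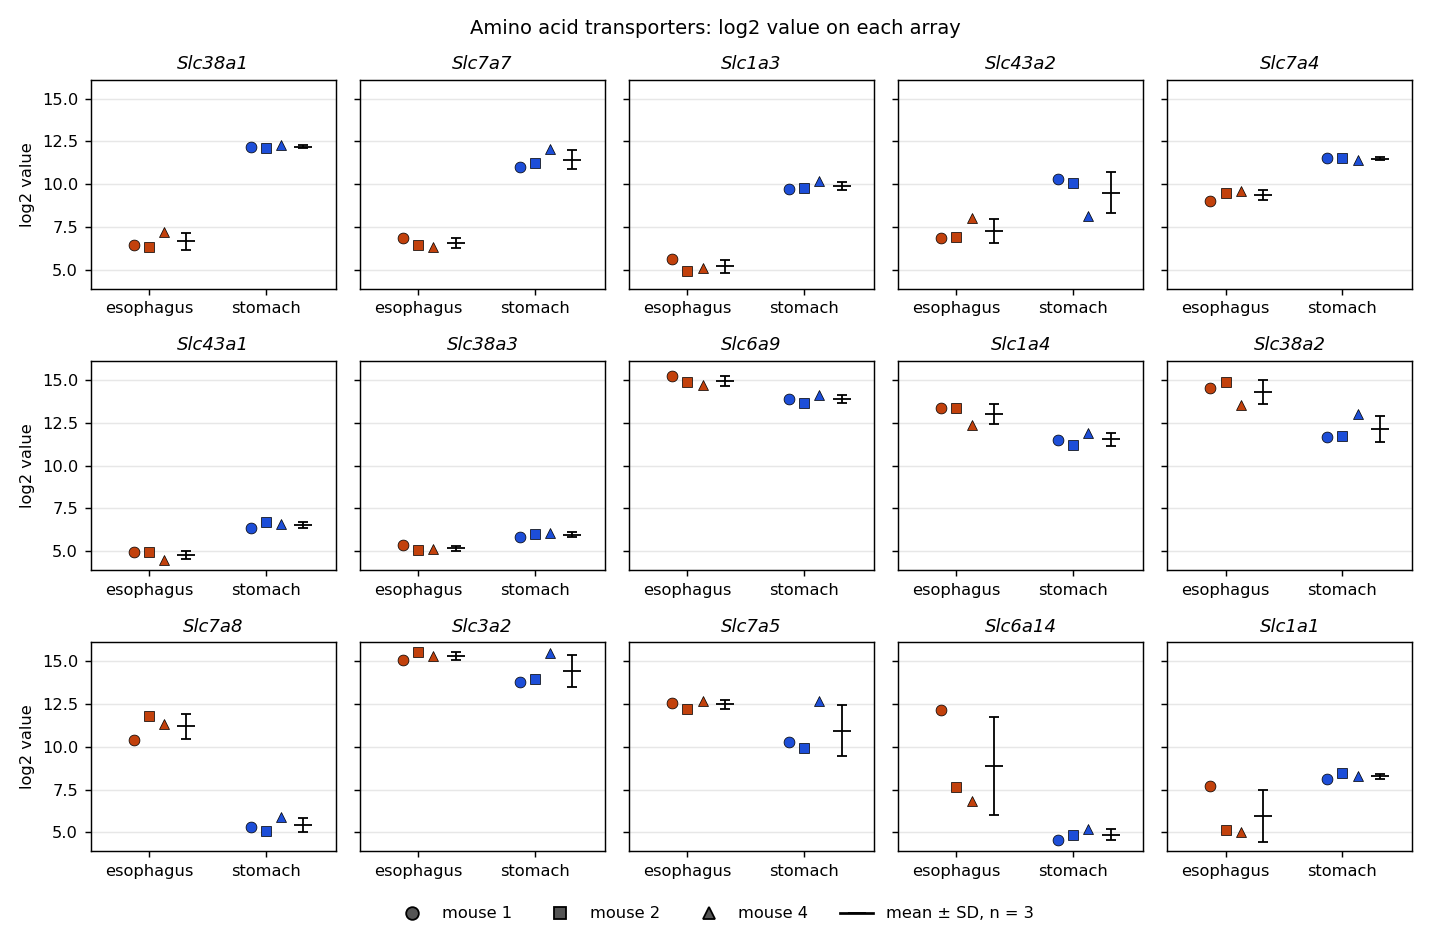
Log2 value on each array for the 11 transporters that passed and for Slc3a2, Slc7a5, Slc6a14 and Slc1a1, with the symbol for the mouse and the mean and SD (n = 3) of each tissue in black. The stomach triangle of mouse 4 lies among the esophagus values for Slc3a2 and just above them for Slc7a5, and the esophagus circle of mouse 1 lies apart for Slc6a14 and Slc1a1.

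Of 11 sodium-coupled neutral carriers of the SLC38 family, 1 passed as higher in the esophagus and 2 as higher in the stomach. Slc38a1 (SNAT1) and Slc38a2 (SNAT2) both take up glutamine, alanine and other small neutral amino acids. Slc38a1 read 6.47, 6.30 and 7.22 on the esophagus arrays of mice 1, 2 and 4 and 12.16, 12.13 and 12.28 on the stomach arrays. The stomach values were nearly equal, and every one was more than 4 log2 units above the esophagus values. A log2 fold change of -5.53, with a standard error of 0.24 and an adjusted p of 4.87e-06 resulted, and it passed in all 14 alternatives. Its 2 other probes were below background on all esophagus arrays and passed in the same direction, the stomach being at least 7.61-fold and at least 9.09-fold higher. The brightest probe lies at chr15:96406793-96406852 (mm9).

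Slc38a2 went the other way at 14.56, 14.88 and 13.53 in the esophagus and 11.69, 11.71 and 13.01 in the stomach. The groups did not overlap, but the mouse 4 arrays of both tissues lay closest to each other. The log2 fold change was 2.19, with a standard error of 0.45 and an adjusted p of 0.0176. With the mouse as a block its adjusted p was 0.0521, and with mean intensities and a background offset of 50 it was 0.0543. It also did not pass without the esophagus array of mouse 2 (0.0626) or the stomach array of mouse 1 (0.0843) or 2 (0.0843). Without the stomach array of mouse 4 the log2 fold change was 2.62.

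Slc38a3 (SNAT3), which can carry glutamine in both directions, was dim. It read 5.33, 5.04 and 5.12 in the esophagus and 5.81, 5.99 and 6.07 in the stomach and was below background on all esophagus arrays, so that the stomach signal was at least 1.7-fold higher (adjusted p = 0.0131). It did not pass without the esophagus array of mouse 2 (0.0521) or the stomach array of mouse 2 (0.0597). Of the other 8 SLC38 genes none passed in limma, 1 had an unadjusted p below 0.05, and 4 were below background everywhere. Slc38a9, the lysosomal carrier that senses arginine for mTORC1, was 8.27, 8.18 and 8.76 in the esophagus and 9.19, 9.14 and 8.77 in the stomach, a difference of -0.63 (SE 0.21, adjusted p = 0.102). Without the esophagus array of mouse 4 it was -0.81 with an adjusted p of 0.0389. Slc38a6, Slc38a7 and Slc38a10 were detected in both tissues, with log2 fold changes from -0.38 to 0.07.

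In the SLC1 family 1 of 2 neutral carriers and 1 of 5 glutamate carriers passed, in opposite directions. Slc1a4 (ASCT1), an exchanger of alanine, serine, cysteine and threonine, read 13.35, 13.39 and 12.36 in the esophagus and 11.52, 11.18 and 11.89 in the stomach. All esophagus arrays were higher, with mouse 4 the lowest of them. Esophagus minus stomach gave 1.5, with a standard error of 0.31 and an adjusted p of 0.0185. The call was lost in 4 of 14 alternatives, those without mouse 1 or 2 of either tissue, with adjusted p of 0.0506 to 0.0849. Slc1a5 (ASCT2), the main glutamine exchanger of many dividing cells, was bright in both tissues at 12.92, 12.68 and 12.78 in the esophagus and 12.56, 12.60 and 13.54 in the stomach. These groups overlapped, with the stomach array of mouse 4 the highest. The log2 fold change was -0.11 (SE 0.27, adjusted p = 0.873), and without that array the sign turned, at 0.21 (adjusted p = 0.514).

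Slc1a3 (GLAST), a high-affinity glutamate and aspartate carrier best known from astrocytes, was detected in the stomach and not in the esophagus. Its values were 5.64, 4.91 and 5.07 in the esophagus and 9.70, 9.81 and 10.16 in the stomach. No esophagus array was above background, and the stomach signal was at least 24.4-fold higher (adjusted p = 8.59e-06). It passed in all 14 alternatives, and its probe lies at chr15:8584236-8584295 (mm9). The summed level of 6 neuron and glia markers was 13.02 to 13.90 in the esophagus and 13.96 to 15.39 in the stomach, and its part in this result was not tested. Slc1a1 (EAAT3), the glutamate and cysteine carrier of epithelia, read 7.70, 5.13 and 5.02 in the esophagus and 8.14, 8.44 and 8.28 in the stomach. The stomach arrays were all higher, but the esophagus array of mouse 1 lay over 2 log2 units above the other 2 of its tissue. The difference was -2.34 (SE 0.65, adjusted p = 0.0582), and without that array it was -3.21 (adjusted p = 3.97e-05). With dim probes left out of the test its adjusted p was 0.0324, which passed. Slc1a2 and Slc1a7, carriers of glial and retinal cells, were above background on some arrays only, and Slc1a6 on none.

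The cationic carriers of the SLC7 family take up arginine, lysine and ornithine. Slc7a1 (CAT-1), found in most dividing cells, was bright at 14.83, 15.04 and 14.23 in the esophagus and 14.17, 13.95 and 14.85 in the stomach. Its groups overlapped and the log2 fold change was 0.38 (SE 0.29, adjusted p = 0.524). Slc7a3 (CAT-3) read 9.02, 9.25 and 7.72 in the esophagus and 8.39, 8.21 and 10.28 in the stomach, also with overlap and with the stomach array of mouse 4 the highest of the 6. Its log2 fold change was -0.29 (SE 0.60, adjusted p = 0.84), and without that array the sign turned, at 0.37 (adjusted p = 0.711). Without the esophagus array of mouse 4 it was 0.18 (adjusted p = 0.906). Slc7a4, a relative of these carriers with no well-established substrate, was higher in the stomach at 9.0, 9.51 and 9.59 in the esophagus and 11.55, 11.56 and 11.41 in the stomach. The groups were separate and the stomach values nearly equal. The difference was -2.14, with a standard error of 0.19 and an adjusted p of 2.23e-04, and it passed in all 14 alternatives. A second Slc7a4 probe was below background on every array, at 0.23 (adjusted p = 0.491). Slc7a2 was below background everywhere.

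Among the SLC6 genes, 4 were detected in at least 1 tissue. Slc6a9 (GlyT1), the sodium- and chloride-coupled glycine carrier, read 15.26, 14.91 and 14.69 in the esophagus and 13.92, 13.67 and 14.15 in the stomach. Every esophagus array was higher than every stomach array, and the log2 fold change was 1.04, with a standard error of 0.20 and an adjusted p of 0.0136. A second Slc6a9 probe passed in the same direction, with 0.94 and an adjusted p of 0.048. The call of the brightest probe was lost without the stomach array of mouse 1 (0.0617) or mouse 2 (0.0635).

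Slc6a14, a broad carrier of neutral and cationic amino acids found in lung and colon epithelium, had the largest SD within a tissue of the 60 members, 2.88 in the esophagus. It read 12.17, 7.65 and 6.80 in the esophagus and 4.56, 4.82 and 5.21 in the stomach. It was detected in the esophagus and below background on every stomach array, but the array of mouse 1 exceeded the other 2 of its tissue by over 4 log2 units. The esophagus signal was at least 15.7-fold higher, with an adjusted p of 0.0784 that missed the threshold. Without the array of mouse 1 the log2 fold change was 2.37 (adjusted p = 0.00276). Without that of mouse 4 it was 5.05 (0.0307), and with scaling to the 75th percentile 6.62 (0.00667). With dim probes left out of the test the adjusted p was 0.0427. Slc6a6, the taurine carrier, and Slc6a8, the creatine carrier, were bright in both tissues. They differed by -0.15 (SE 0.19, adjusted p = 0.729) and 0.36 (SE 0.23, adjusted p = 0.422). The carriers of noradrenaline, dopamine, serotonin and gamma-aminobutyric acid (Slc6a2, Slc6a3, Slc6a4, Slc6a11 and Slc6a13) did not pass, and 3 of these 5 were below background on every array. The other SLC6 genes reported here differed by -0.06 to 0.27 and were below background on every array, except Slc6a19, which was above it on 1 esophagus array.

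In the SLC43 family Slc43a1 and Slc43a2 move large neutral amino acids down their gradient, and Slc43a3 carries purine nucleobases. All 3 had lower means in the esophagus. Slc43a1 (LAT3) read 4.92, 4.91 and 4.49 in the esophagus and 6.34, 6.68 and 6.60 in the stomach. Every esophagus array was below background, and the stomach signal was at least 2.99-fold higher (adjusted p = 5.20e-04). Slc43a2 (LAT4), which releases leucine and phenylalanine across the basolateral side of intestinal cells, read 6.84, 6.88 and 8.04 in the esophagus and 10.29, 10.07 and 8.12 in the stomach. Here the 2 arrays of mouse 4 were nearly equal, and mice 1 and 2 carried the difference. Over all arrays it differed by -2.24 (SE 0.59, adjusted p = 0.0468). The adjusted p was 0.0958 with the mouse as a block, and 9 of 14 alternatives did not pass. Without the stomach array of mouse 4 the log2 fold change was -2.93 (adjusted p = 0.00306). Slc43a3 did not pass, at -0.82 (SE 0.33, adjusted p = 0.175). The SLC36 family, proton-coupled carriers of small amino acids in lysosomes and gut, gave 4 genes of which none passed in limma, and 0 had an unadjusted p below 0.05 for the brightest probe. A second, dimmer Slc36a1 probe, above background on 2 esophagus arrays and no stomach array, had all esophagus values above the stomach values, at 0.77 (unadjusted p = 0.0117, adjusted p = 0.0792). Slc36a1 and Slc36a4 were detected in at least 1 tissue and differed by 0.12 and 0.35, and Slc36a2 and Slc36a3 were below background.

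The 25 genes below background on all arrays had values of 4.30 to 5.42, near the floor of the arrays, and fold changes of -0.14 to 0.52. They include Slc7a2, Slc7a9, Slc7a10, Slc38a4 and Slc38a5. What these data show for them is that no signal was well above background, not that the genes are silent.

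Some transporters differed within a tissue. The array of mouse 4 lay more than 1 log2 unit above both other stomach arrays for 5 of the 60 members (8.33%), beside 1.47% of all gene names. These were Slc7a5, Slc7a3, Slc3a2, Slc38a2 and the dim Slc1a2. The array lay that far below both for Slc43a2 (1.67%, beside 1.79%). This stomach array was the highest of its tissue for 18 of the 28 detected members (64.3%), beside 44.6% of all such gene names. No member lay more than 1 log2 unit above or below both others on the stomach array of mouse 1 or 2. In the esophagus the array of mouse 1 lay that far above both others for 3 members (5%), Slc6a14, Slc1a1 and Slc43a3, beside 1.73% of all gene names. That of mouse 4 did so for 1 (1.67%), Slc43a2, beside 0.689% of all gene names. It lay below both for 2 (3.33%), Slc38a2 and Slc7a3, beside 1.89%. These 3 genes also stood apart on the stomach array of mouse 4, each in the opposite direction. The esophagus array of mouse 4 was alone on slide 2, so mouse and slide cannot be told apart in it. The esophagus array of mouse 2 lay above both for the dim Slc6a19 (1.67%, beside 1.17% of all gene names).

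**Figure D3:**
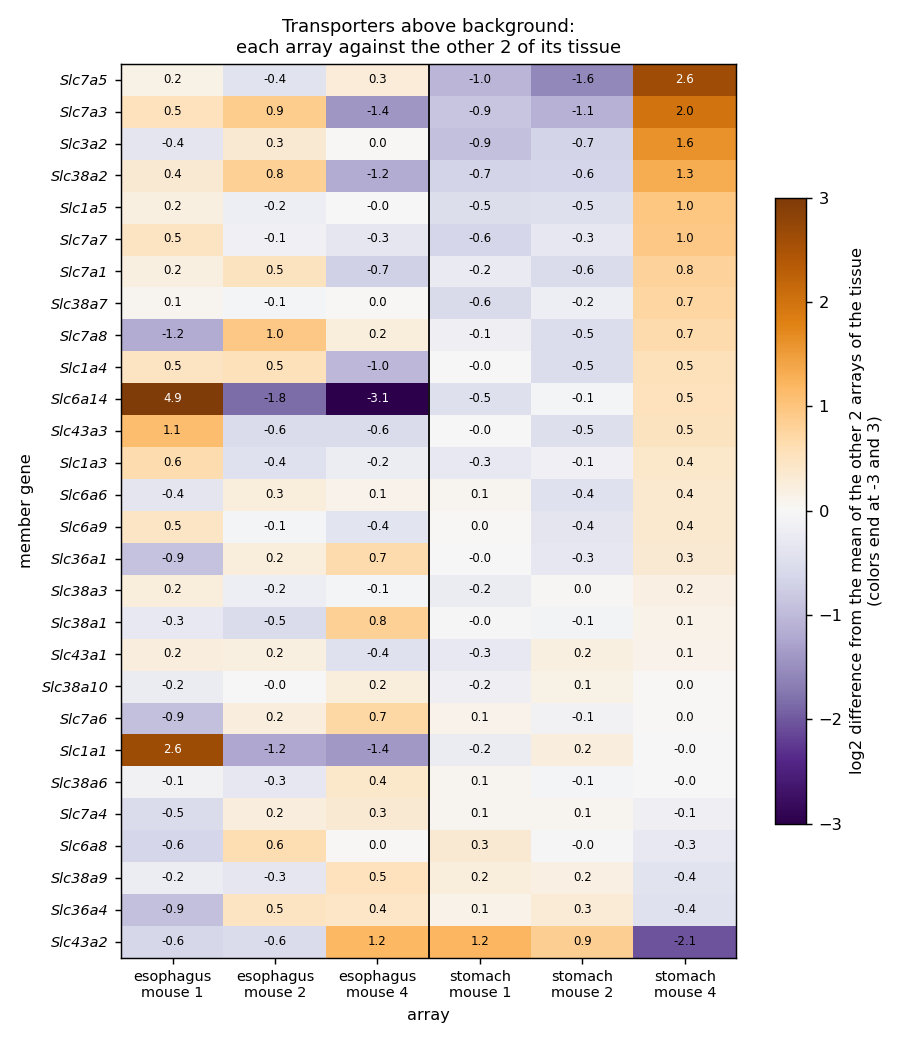
Each array's log2 value minus the mean of the other 2 arrays of its tissue, for the 28 transporters detected in at least 1 tissue, ordered by the stomach array of mouse 4. Slc7a5, Slc7a3, Slc3a2 and Slc38a2 are raised on that array and Slc43a2 is lowered, and Slc6a14 and Slc1a1 stand out on the esophagus array of mouse 1.

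**Figure D4:**
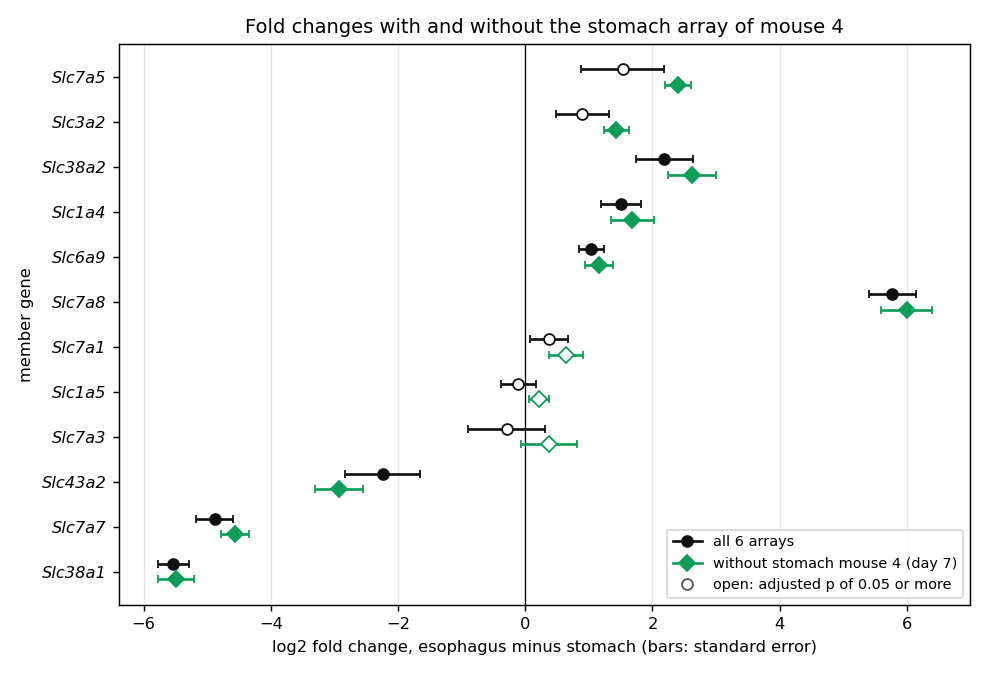
Log2 fold change, esophagus minus stomach, with standard error for 12 transporters from all 6 arrays (circles) and without the stomach array of mouse 4 (diamonds), filled where the adjusted p was below 0.05. Slc7a5 went from 1.53 to 2.40 and Slc3a2 from 0.90 to 1.43, whereas Slc38a1 and Slc7a8 moved little.

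Genes of the amino acid response also varied within each tissue. Of 27 ATF4-related genes, 7 passed as higher in the esophagus and 1 as lower, which is 25.9% and 3.7% of the list beside 12.8% and 13.9% of all detected gene names. Their median log2 fold change was 1.13, beside 0.03 for all gene names. Aldh1l2, a mitochondrial folate enzyme, read 12.23, 12.73 and 12.41 in the esophagus and 7.0, 7.31 and 10.57 in the stomach. The esophagus values were all higher, but the stomach array of mouse 4 was over 3 log2 units above the other 2, and the log2 fold change was 4.16 (SE 0.84, adjusted p = 0.016), or 5.30 without that array. Chac1, which degrades glutathione, differed by 2.93 (SE 0.66, adjusted p = 0.0253), and Ddit4, an inhibitor of mTORC1 signaling, by 2.27 (SE 0.20, adjusted p = 2.13e-04). Stc2, a secreted glycoprotein, was the 1 gene higher in the stomach at -2.48 (SE 0.28, adjusted p = 8.85e-04). The stomach array of mouse 4 was the highest of its tissue for 25 of the 27 (92.6%), beside 44.6% of all detected gene names. It was more than 1 log2 unit above both others for 15 (55.6%), beside 2.52%. The esophagus array of mouse 4, alone on its slide, was more than 1 log2 unit below both others of its tissue for 8 (29.6%). Chac1 was among them, and the share of all detected gene names was 3.14%. Without the stomach array of mouse 4, 16 of the 27 passed as higher in the esophagus and the median was 1.65. Leaving out either other stomach array, or the esophagus array of mouse 2, left 3, and leaving out the esophagus array of mouse 4 gave 11. Without the esophagus array of mouse 1 the counts were 5 and 3. Over all gene names the share that passed as higher in the esophagus was 7.15% with all arrays, 7.61% without the stomach array of mouse 4, 3.93% and 3.94% without that of mouse 1 or 2, and 5.27% and 6.74% without the esophagus array of mouse 2 or 4. Atf4 itself, singled out after its values were seen, read 17.13, 17.52 and 16.99 in the esophagus and 16.22, 15.67 and 17.04 in the stomach and did not pass, with a log2 fold change of 0.90 (SE 0.33, adjusted p = 0.145). Without the stomach array of mouse 4 it passed, at 1.27.

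The other lists of amino acid handling, which include undetected genes, are given with their shares. These stand beside 12.8% of detected and 7.15% of all gene names in the esophagus direction, and 13.9% and 7.7% in the stomach direction. Of 20 cytosolic aminoacyl-tRNA synthetases, which charge tRNAs, Yars, for tyrosine, passed as higher in the esophagus at 0.91 and Wars, for tryptophan, as higher in the stomach at -2.94, 5% in each direction. Without the stomach array of mouse 4, 8 passed in the esophagus direction and 1 in the other. Without that of mouse 1 or mouse 2, or with scaling to the 75th percentile, Yars did not pass and none did in the esophagus direction. Of 33 genes of amino acid sensing by mTORC1, 4 (12.1%) passed, all higher in the esophagus, a share near that of detected gene names. They include Sesn1 and Castor1, sensors of leucine and arginine, at 1.39 and 1.16, and the GTPase Rraga at 0.70. Leaving out the stomach array of mouse 4 gave 7, and with the mouse as a block, or without the array of mouse 1 or 2 of either tissue, 2. Among 22 other amino acid and peptide carriers, Slc25a29, a mitochondrial carrier of basic amino acids, was higher in the esophagus at 2.03. The lysosomal proteins Slc17a5, which exports sialic acid, and Mfsd12, which takes up cysteine, were higher in the stomach at -2.58 and -2.19. These are 4.55% and 9.09%. The other 19 did not pass, and without the esophagus array of mouse 4 there were 3 in each direction.

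Of 18 enzymes of glutamine, glutamate and proline, 3 (16.7%) passed in each direction, near the shares of detected gene names. Glul, which makes glutamine from glutamate, read 10.23, 9.39 and 7.12 in the esophagus and 13.29, 13.21 and 11.76 in the stomach. Every stomach array was higher, although the esophagus values spread over 3 log2 units, and the log2 fold change was -3.84 (SE 0.77, adjusted p = 0.0158). Prodh, which oxidizes proline, and Got1, an aspartate aminotransferase, were also higher in the stomach, at -2.61 and -1.46. The glutathione synthesis subunit Gclm, the glutaminase Gls2 and Aldh4a1, which completes proline breakdown, were higher in the esophagus, at 1.81, 1.64 and 1.19. Of 20 genes of branched-chain amino acid catabolism, 4 (20%) passed and all 4 were higher in the stomach. Bcat2, the mitochondrial aminotransferase that starts this pathway, differed by -2.50 (SE 0.24, adjusted p = 3.94e-04), Auh, of leucine breakdown, by -1.10 and Hibch, of valine breakdown, by -0.88. The stomach array of mouse 1 bore on this count, which was 2 without it, and scaling to the 75th percentile left 1.

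Of 19 arginine and polyamine enzymes 4 (21.1%) passed, each higher in the esophagus. With normexp at an offset of 16 on mean instead of median intensities, 2 others passed as higher in the stomach. Ass1, which makes argininosuccinate from citrulline, differed by 2.94 (SE 0.26, adjusted p = 2.22e-04) and Smox, a spermine oxidase, by 2.22 (SE 0.25, adjusted p = 8.72e-04). Of 9 genes of creatine and taurine metabolism, Gamt and Gatm, the pair of enzymes that make creatine, were the 2 (22.2%) that passed. Both were higher in the stomach. Gamt differed by -3.08 (SE 0.15, adjusted p = 9.86e-06), and Gatm, below background in the esophagus, had a stomach signal at least 6.61-fold higher.

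**Figure D5:**
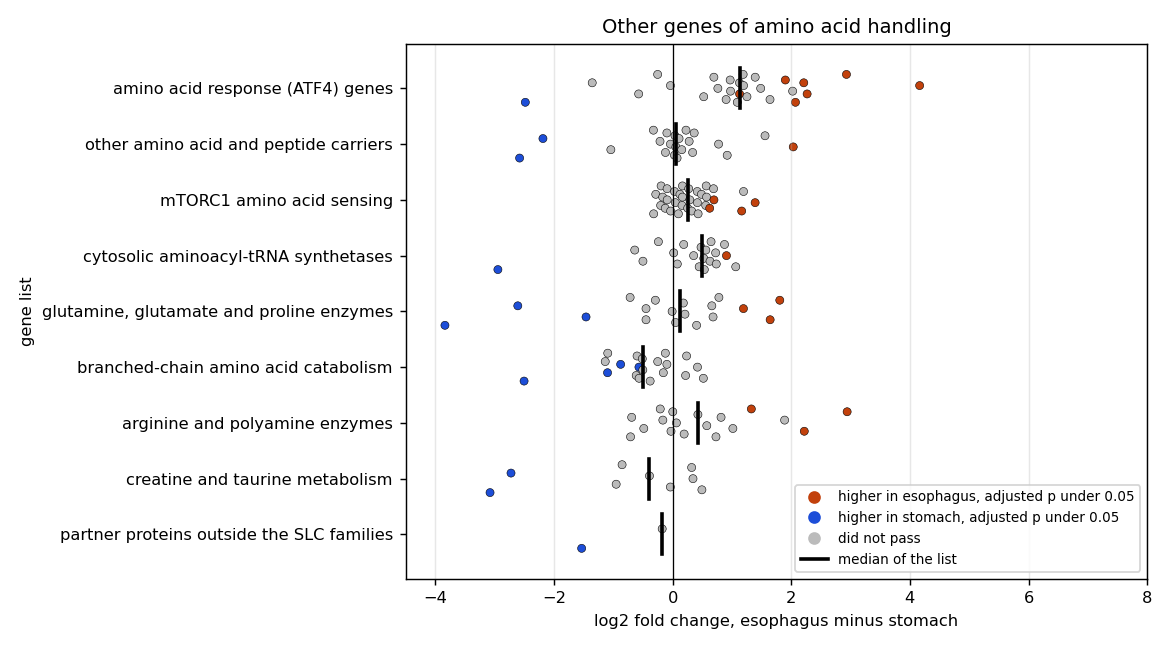
Log2 fold change, esophagus minus stomach, of genes in 9 lists of amino acid handling, with a black bar at the median of each list. The ATF4-related genes have a median of 1.13 and the branched-chain genes one of -0.51, over whole lists of which 2 genes are not drawn.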

How the data were processed

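Total RNA of 6 organoid cultures was hybridized to single-color Agilent mouse arrays. Per the file headers, spots were quantified with Feature Extraction 11.5.1.1. The deposited files of the single arrays give spot and local background intensity without normalization. The log2 table used here was background corrected and quantile normalized by the authors. It was rebuilt from the median intensities by normexp (offset 15) and quantile normalization with a median absolute difference of 0.00433. Spots marked as outliers, 2029 in all, are empty in it.

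The log2 values of 59305 non-control spots were averaged per probe. In R 4.3.3, limma 3.58.1 (lmFit, eBayes, no block) compared the tissues, two-sided. A gene below background on every array of a tissue is given as a bound. Each array of that tissue entered with the gene's own value or the array's lowest signal well above background, whichever was higher. An unflagged value can exceed that lowest signal, as for Slc1a3 on the esophagus array of mouse 1 (5.64, against 5.00). The bound is therefore approximate. Members named with values are those that passed and both heavy chains and light chains Slc7a5 to Slc7a10, others by group. From each list up to 3 genes per direction are named. Slc1a1, Slc1a5, Slc6a14, Slc7a1, Slc7a3, Slc38a9, the carriers of taurine and creatine, and other genes that did not pass were singled out after their values were seen. The members and lists were chosen with earlier results of these data known. Gene names and coordinates (mm9) are those of the files. The test was checked on simulated data. Values of 1 member and of 2 genes of the other lists are not reported here.

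The labels use the same numbers, read as mice, in both tissues, and arrays of 1 number were treated as pairs when the mouse was a block. Their deviations from the tissue means correlated with r = 0.0420, 0.0226 and -0.00178, against -0.0912 to 0.0399 between mice, over 25836 probes. Slide 1 held the 3 stomach arrays and the esophagus arrays of mice 1 and 2, and slide 2 the esophagus array of mouse 4, so the slide block equals leaving that array out. The number of arrays limits the precision. Alternatives were other background corrections and scalings, a filter on dim probes, trended robust variances, mouse or slide as a block, the mean of a gene's probes, other thresholds, and each array left out.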

Additional observations from a re-analysis of the deposited data

How the results depend on the processing

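The counts of transporters that passed were 3 to 5 in the esophagus direction and 6 to 8 in the stomach direction under the other background corrections, scalings, filters, variance models and blocks, against 4 and 7. With the mouse as a block they were 3 and 6, and this pairing changed the call of Slc38a2 and Slc43a2 and of no other transporter named with values. Leaving out 1 array at a time gave 1 to 6 in the esophagus and 5 to 8 in the stomach, while the share of all gene names that passed ran from 3.93% to 7.61% and from 5.22% to 8.7%. Without the stomach array of mouse 1 or of mouse 2, where these shares in the esophagus direction were 3.93% and 3.94%, 1 esophagus call remained, Slc7a8, and without the esophagus array of mouse 2 there were 2. At an unadjusted p below 0.05, added after the data were seen, there were 7 and 11, beside 4977 and 4465 of 34298 gene names. With 1.5-fold as well, as in the methods, there were 6 and 11, beside 11% and 10.7% of all gene names. The median log2 fold change of the members, 0.05, was 0.18 with scaling to the 75th percentile, where the median of all gene names was 0.19. It was -0.13 over the 28 members left by the dim filter, 0.0003 with the slide as a block, and 0.0003 to 0.077 with 1 array left out. Scaling to the 75th percentile widened differences near background, to -7.05 for Slc1a3, -4.19 for Slc43a1 and -2.33 for Slc38a3. Normexp on mean intensities with an offset of 50 narrowed them to -3.73, -1.02 and -0.44, smaller than the bounds of the report. No transporter that passed changed direction under any alternative. Slc38a1, Slc7a7, Slc1a3, Slc7a4, Slc43a1 and Slc7a8 passed in all 14 alternative fits. Signal over background limits the other results: 25 of 60 members were never above it, and the floor leaves folds of dim genes as bounds.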

Other observations

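A pair of transporters lies outside the naming rule because a letter follows the member number. Slc6a20a, a carrier of proline and related imino acids, read 7.01, 7.97 and 7.4 in the esophagus and 5.55, 5.59 and 5.50 in the stomach. All esophagus arrays were higher, with a log2 fold change of 1.91 (SE 0.24, adjusted p = 0.00159 in limma). Its near copy Slc6a20b was below background on all 6 arrays, with a log2 fold change of 0.21 (adjusted p = 0.559). The probes lie at chr9:123546031-123546090 and chr9:123504197-123504256 in mm9, and how far each reads the other transcript was not tested.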
